A study of Rattus norvegicus with 18 samples.

Results

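The genes described here encode the protein kinases of the MAP kinase cascades (symbols starting with Mapk, Map2k, Map3k or Map4k), protein kinase C (Prkc), the calmodulin-dependent kinases (Camk), the catalytic and regulatory subunits of protein phosphatases 1, 2A and 2B (Ppp1, Ppp2 and Ppp3), and the dual-specificity phosphatases (Dusp). Members were all probe sets with a single gene symbol in the array's annotation that starts with one of these 10 letter groups. The rule used names only and no measured value. It took 127 of the 8799 probe sets on the array, which stand for 71 genes. A further 3 probe sets that carried a member's symbol beside another symbol were left out. The symbol rule also takes proteins that act on these enzymes without being one: Mapk8ip1 and Mapk8ip2 are scaffolds of the JNK cascade, Mapkapk2 and Mapkapk3 are kinases that p38 phosphorylates, Camk2n1 and Camk2n2 inhibit CaM kinase II, and Camkv is a kinase-like protein without known kinase activity.

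The tissue was the suprachiasmatic nucleus (SCN), the seat of the central circadian clock in the hypothalamus, from adult male Long-Evans rats. The rats had lived in a cycle of light and dark, went into constant darkness at the usual lights-off, and were sampled every 6 h from the next circadian time (CT) 0, the projected lights-on. At 0, 6, 12, 18, 24, 30, 36 and 42 h, the 8 times used, RNA of 5 rats formed 1 pool, so that CT 0, 6, 12 and 18 were each seen in 2 pools, 1 per day. The pools were read on 18 rat U34A GeneChips, 1-colour oligonucleotide arrays with 1 or several probe sets per gene. A technical repeat took 8 of them and a first run 10, since the 24 h and 36 h points had arrays marked a and b in that run. These pairs were assumed to share a pool, which the labels leave unsaid. As each time point is a single pool, p-values measure how far pools scatter around a curve, array error included. The SCN cell line of the title was not analysed here.

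In a MAP kinase cascade, a Map3k kinase, which a Map4k kinase can activate, activates a Map2k kinase. The Map2k kinase activates a MAP kinase such as ERK, JNK or p38, and dual-specificity phosphatases remove the phosphates again. Protein kinase C answers to diacylglycerol and, for some isoforms, calcium, and CaM kinases and calcineurin (protein phosphatase 2B) answer to calcium bound to calmodulin. In the SCN, light reaches the clock through glutamate and calcium, and ERK and CaM kinase II are among the enzymes known to carry that signal to the transcription factor CREB and to the Per genes. Protein phosphatases 1 and 2A also act on PER and casein kinase. All of this is control by phosphorylation, and the arrays measured RNA, not kinase activity.

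RefSeq promoter sequences (build GRCr8, 250 bases before to 50 after the start of the gene) were matched by Entrez gene identifier for 58 of the 71 genes. Those of 4 members are printed: Ppp1cb and Map4k1, which were among the probe sets nearest to a 24 h curve, Mapkapk3, the tested member with an E-box whose array value was higher at CT 12 than at CT 0, and Dusp1, the member that holds both an E-box and a full CRE. Capitals mark the E-box CACGTG, which CLOCK and BMAL1 bind, and the CRE core site TGACG or the full CRE TGACGTCA, which CREB binds. The capitals CGTCA would be the core site read on the other strand. The windows lie at chr6:29712786-29713085 on the minus strand for Ppp1cb, at chr1:93398319-93398618 on the plus strand for Map4k1, at chr8:116842179-116842478 on the minus strand for Mapkapk3 and at chr10:17184603-17184902 on the plus strand for Dusp1.
Ppp1cb: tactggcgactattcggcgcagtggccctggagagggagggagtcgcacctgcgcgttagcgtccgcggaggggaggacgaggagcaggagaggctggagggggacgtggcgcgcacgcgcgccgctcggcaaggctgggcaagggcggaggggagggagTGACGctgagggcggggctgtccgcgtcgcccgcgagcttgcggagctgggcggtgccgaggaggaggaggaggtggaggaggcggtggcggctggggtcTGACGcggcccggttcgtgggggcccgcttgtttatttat
Map4k1: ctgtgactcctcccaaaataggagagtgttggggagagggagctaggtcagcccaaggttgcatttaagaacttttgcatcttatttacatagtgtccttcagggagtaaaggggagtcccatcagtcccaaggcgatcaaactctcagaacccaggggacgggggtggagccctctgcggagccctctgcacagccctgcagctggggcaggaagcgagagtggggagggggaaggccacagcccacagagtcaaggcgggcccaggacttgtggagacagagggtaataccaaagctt
Mapkapk3: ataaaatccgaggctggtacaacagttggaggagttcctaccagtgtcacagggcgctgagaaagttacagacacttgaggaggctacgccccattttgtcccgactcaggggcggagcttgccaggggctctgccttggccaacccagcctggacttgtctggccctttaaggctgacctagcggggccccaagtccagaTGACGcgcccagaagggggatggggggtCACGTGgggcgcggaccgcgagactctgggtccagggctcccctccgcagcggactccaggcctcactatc
Dusp1: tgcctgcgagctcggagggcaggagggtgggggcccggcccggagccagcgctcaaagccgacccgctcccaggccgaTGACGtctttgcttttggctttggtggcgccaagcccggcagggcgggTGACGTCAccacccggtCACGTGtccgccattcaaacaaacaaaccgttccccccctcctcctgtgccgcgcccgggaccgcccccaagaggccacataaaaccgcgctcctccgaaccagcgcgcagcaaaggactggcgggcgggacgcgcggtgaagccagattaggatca

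The Ppp1cb window held the CRE core site at -90 and at +11, counted from the start of the gene, and neither an E-box nor a full CRE. The Mapkapk3 window held a CRE core site at -49 and an E-box at -21, and the Map4k1 window held none of the motifs searched. In Dusp1 a core site outside the full CRE began at -172, the full CRE at -124 and the E-box at -107. Both strands were searched, and a full CRE also counts as 2 overlapping core sites, 1 on each strand. Among the 58 member promoters, 3 held the E-box (Dusp1, Mapk12 and Mapkapk3), or 5.17%, against 6.65% of all 27457 promoters in the table. The CRE core site stood in 19 member promoters, or 32.8%, against 22.0% of all, and the full CRE in 2 (Dusp1 and Ppp1r15a), or 3.45%, against 1.91%. The D-box TTATGTAA, which the PAR bZIP factors bind, stood in 0 member promoters, against 0.881% of all. A match is a match of letters only.

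Of the 127 probe sets, 67 passed the level filter (a mean over the pools above the median of the array, a geometric mean intensity of 121.3) and were tested. They stand for 50 genes. The share that passed was 52.8%, against 50% of all probe sets by construction. Intensity depends on the probes of a set, so the values below are not levels of one gene against another. In the PP2A family 11 of 12 probe sets passed, in Map2k 8 of 9 and in Ppp1 15 of 21, whereas in Camk 8 of 24 passed, in Mapk 9 of 24 and in Prkc 6 of 14. Of the rest, 2 of 3 Map4k, 3 of 7 Map3k, 2 of 5 Ppp3 and 3 of 8 Dusp probe sets passed.

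In the kinase families, the probe sets with the highest mean intensity were those of Mapk8ip2 (7066), Map2k1 (4450), which encodes the ERK kinase MEK1, Map3k12 (698), which encodes a kinase upstream of JNK in neurons, Map4k4 (159), Prkcb (4800) and Camk2d (2649). In the phosphatase families they were Ppp1cb (2151), a catalytic subunit of protein phosphatase 1, Ppp2r2b (4131), a B subunit of PP2A, Ppp3ca (1043), a catalytic subunit of calcineurin, and Dusp5 (399), which removes phosphate from nuclear ERK. For 21 genes no probe set passed the filter. They include the CaM kinases Camk4 and Camk2a, the JNK gene Mapk8, the ERK5 gene Mapk7, the PKC gene Prkca, the calcineurin gene Ppp3cb and the ERK phosphatases Dusp1 and Dusp4. The 3 Dusp1 probe sets had mean intensities of 88.8, 32.9 and 12.9, the last close to the floor of 12.1 that was set for the lowest values. Camk2a, whose RNA is abundant in forebrain projection neurons, was read at 31.4 and 20.5. On 9 or more of the 18 arrays 13 member probe sets lay at the floor, and 90 members lay at it on none.

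**Figure D1:**
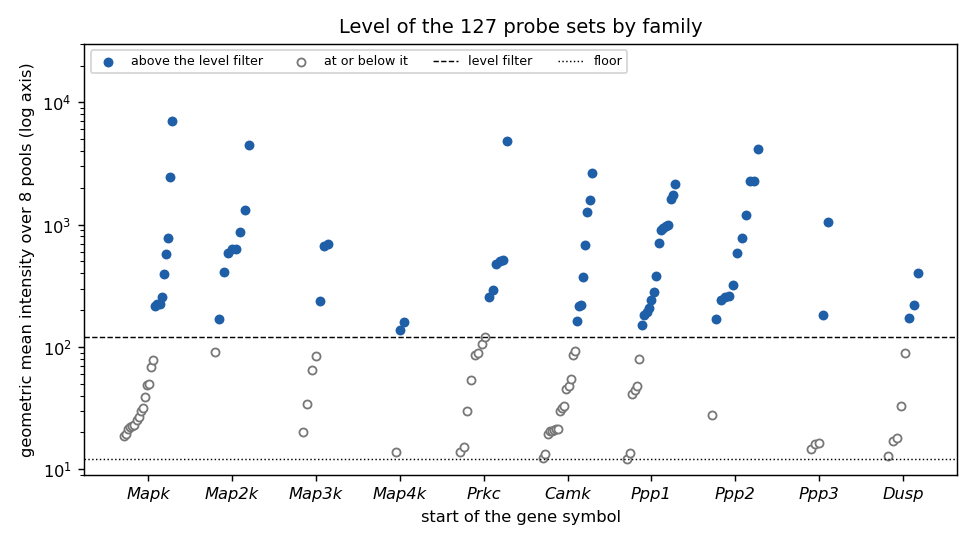
Geometric mean intensity over the 8 pools (log axis) of each of the 127 member probe sets, by the start of the gene symbol. Filled points lie above the level filter (dashed line), open points at or below it, and the dotted line is the floor; 11 of 12 Ppp2 and 8 of 24 Camk probe sets lie above the filter.

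Peptides that define SCN neurons were checked. Tested probe sets of Avp were read at 1732 and 468 and those of Sst at 5541 and 843, whereas that of Vip was at 49.0 and below the filter. Of markers of neighbouring hypothalamic neurons 8 of 9 probe sets passed the filter, up to 3034 for Oxt, and of those of striatal and cortical projection neurons 2 of 8, up to 336 for Drd1, with Slc17a7 at 12.3. In bulk tissue, fewer cells of a type and less RNA per cell cannot be told apart. Array medians were 107.9 to 127.6 in the technical repeat and 136.5 to 152.3 in the first run. On 3 first-run arrays (12 h, 24 h b and 36 h b) the median of the 59 control probe sets was 86.2 or more, against at most 67.4 on the other arrays. Counts without these 3 arrays are given where they differ. The 18 h pool held the lowest of the 8 values in 14 of the 67 tested members (20.9%, against 18.4% of all tested probe sets), among them Map2k1, Map2k5, Mapk6, Ppp1cc and Ppp2r2b, and the 42 h pool, the same phase a day later, held it in 1 (1.49%, against 9.15% of all).

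The study's title names circadian profiling, and the first comparison was the fit of a 24 h curve to the 8 pools. No member passed the threshold, an adjusted p of 0.05, in limma's moderated F test with Benjamini-Hochberg adjustment over 4370 probe sets (0 of 67, background 0%). At an unadjusted p under 0.05 there were 3 of 67 members (4.48%), below the background of 6.36% of all tested probe sets. The 3 were Mapk9, Map4k1 and a probe set of Ppp1cb. The median fitted amplitude, the log2 distance from the mean of the curve to its peak, was 0.15 over the members and 0.16 over all tested probe sets. By family the median amplitude was 0.27 in Map4k, 0.25 in Mapk, 0.24 in Dusp, 0.19 in Ppp2, 0.16 in Map2k and Ppp3, 0.15 in Ppp1 and 0.10 or less in Map3k and Prkc (0.10 each) and Camk (0.09). The fitted peaks of the 67 members lay nearest to CT 0 in 21, CT 6 in 15, CT 12 in 14 and CT 18 in 17. These are 31.3%, 22.4%, 20.9% and 25.4%, against 26.3%, 21.1%, 28.0% and 24.6% of all tested probe sets. Leaving out the 18 h or the 30 h pool gave 5 members each (7.46%), with 6.50% and 8.49% of all tested probe sets.

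**Figure D2:**
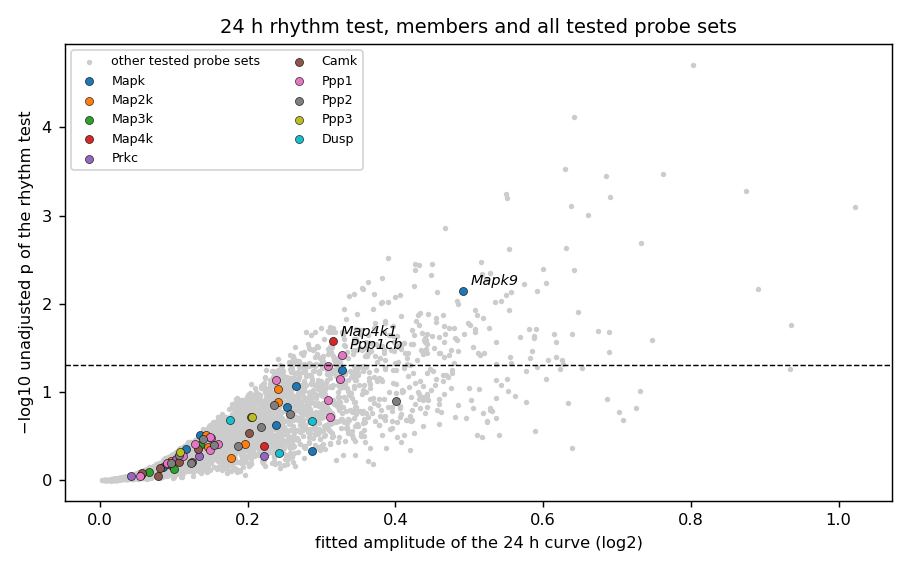
Fitted amplitude of the 24 h curve (log2, horizontal) against −log10 of the unadjusted p of the rhythm test (vertical) for the 4370 tested probe sets, with the 67 members coloured by family. The dashed line is an unadjusted p of 0.05, with the 3 members above it named; other probe sets reach larger amplitudes and smaller p-values than any member.

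Mapk9 encodes JNK2, a stress-activated MAP kinase that is abundant in brain. Its tested probe set had pool intensities of 298, 314, 158, 273, 390, 206, 191 and 279 from 0 to 42 h. The pools at 12 h and 36 h (both CT 12) were the lowest, and that at 24 h was the highest. The fitted amplitude was 0.49 ± 0.12 (SE, 8 pools) with a peak at CT 23.5 (unadjusted limma p = 0.0072, adjusted p = 0.746; exact permutation p = 0.0349). In the technical repeat the amplitude was 0.70 and in the first run 0.48. The runs differed at CT 18, where the 18 h and 42 h pools were read at 430 and 411 in the technical repeat. In the first run they were read at 174 and 189, both below the 36 h pool (207). Mapk9 has 2 further probe sets on the array, read at 26.7 and 21.5 and below the filter, the first of them from the same source sequence as the tested set, so no other probe set bears on this time course.

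Map4k1 encodes a kinase upstream of JNK that is best known from blood cells. Its pool intensities were 148, 125, 146, 159, 126, 98.5, 129 and 186 from 0 to 42 h, all near the level filter. Both CT 18 pools lay above both CT 6 pools. The amplitude was 0.32 ± 0.10 (SE, 8 pools) with a peak at CT 18.0 (unadjusted limma p = 0.0266, adjusted p = 0.746; exact permutation p = 0.0190). The runs differed in shape: the pool at 18 h was read at 225 in the technical repeat and at 112 in the first run, where it lay below the 6 h pool (140). The correlation of the 8 pools between the runs was 0.026. The partner probe set from the same source sequence was read at 13.8, close to the floor.

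Ppp1cb encodes the beta catalytic subunit of protein phosphatase 1. The dimmer of its 2 tested probe sets had 1002, 731, 703, 640, 887, 627, 513 and 638 from 0 to 42 h, with both CT 0 pools as the highest of the 8. Its amplitude was 0.33 ± 0.11 (SE, 8 pools) with a peak at CT 0.49 (unadjusted limma p = 0.0383, adjusted p = 0.746; exact permutation p = 0.0603). The brighter probe set, from the same source sequence, had 3279, 2007, 1975, 1404, 2487, 2307, 1896 and 2311, with 0.31 as its amplitude and CT 1.64 as its peak. Their values over the 8 pools correlated at r = 0.68, a description over pools and arrays that both sets share. In the brighter set the amplitude was 0.17 in the technical repeat and 0.49 in the first run, and in the dimmer set 0.32 and 0.35.

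Ppp1r1a encodes inhibitor-1, which blocks protein phosphatase 1 once protein kinase A has phosphorylated it. Its brighter probe set had 636, 817, 1148, 989, 794, 1327, 1071 and 943 from 0 to 42 h, and the dimmer one, from the same source sequence, had 173, 205, 272, 287, 201, 285, 298 and 232. In both sets the 0 h and 24 h pools, both at CT 0, were the lowest of the 8 in the mean of the runs. In the technical repeat this held for the dimmer set, but the brighter set was lowest at 6 h (493). In the first run the dimmer set had 292 at 24 h, against 217 at 6 h. The brighter set had 1214 at 24 h and 1213 at 42 h in that run. The amplitudes were 0.33 and 0.31 with peaks at CT 11.4 and CT 12.6, nearly opposite to the peaks of Ppp1cb, and with adjusted p-values of 0.746 in limma's test. The 2 sets correlated at r = 0.91 over the pools, the highest of the 21 pairs of member probe sets. By the p of the rhythm test the next members were a probe set of Mapk14, the p38 alpha kinase (amplitude 0.33, peak CT 16.2), Ppp1r10, a nuclear targeting subunit of protein phosphatase 1 (0.24, CT 19.0), Mapkapk3 (0.27, CT 10.0), Map2k6, which activates p38 (0.24, CT 20.2), Ppp2cb, a catalytic subunit of PP2A (0.40, CT 2.13), and Map2k5, which activates ERK5 (0.24, CT 1.88). In a separate exact permutation test, 3 of 67 members (4.48%) lay under 0.05, namely Mapk4 (p = 0.0159), Map4k1 and Mapk9, against 5.84% of all tested probe sets; 315 arrangements allow no p under 0.00317. Mapk4, an atypical MAP kinase, spanned only 195 to 261 over the pools, with an amplitude of 0.14.

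**Figure D3:**
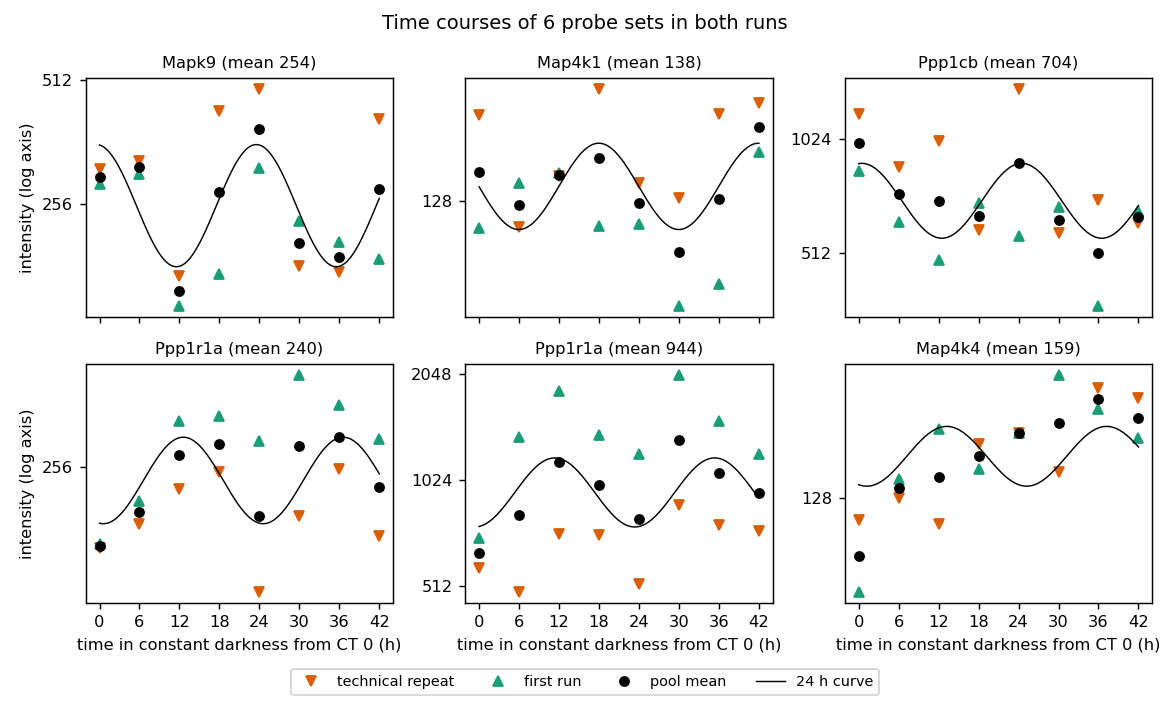
Intensity (log axis) against time in constant darkness (h) for 6 probe sets of Mapk9, Map4k1, Ppp1cb, Ppp1r1a (2 sets) and Map4k4. Triangles are the technical repeat (pointing down) and the first run (pointing up), black points the pool means and the line the fitted 24 h curve. In the pool means Mapk9 is lowest in both CT 12 pools and both Ppp1r1a sets are lowest in both CT 0 pools. The runs lie apart in several pools.

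CT 12, the end of the subjective day, was set against CT 0, its start. No member passed the adjusted threshold (0 of 67, background 0%), and 4 lay at an unadjusted p under 0.05 (5.97%, background 8.67%), 2 of them higher at CT 12 (background 4.19%) and 2 lower (background 4.49%). The lower ones were Mapk9 and Ppp1cb, and the higher ones were both probe sets of Ppp1r1a. Mapk9 was read at 158 and 191 in the CT 12 pools, against 298 and 390 in the CT 0 pools, a log2 difference of -0.98 ± 0.24 (SE; 95% interval -1.51 to -0.44; adjusted p = 0.456). The difference was -1.16 in the technical repeat and -0.79 in the first run.

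For the dimmer Ppp1cb set the values were 703 and 513 at CT 12, against 1002 and 887 at CT 0, a log2 difference of -0.65 ± 0.22 (SE; adjusted p = 0.513). The brighter set gave -0.56 ± 0.27 (SE), with -0.16 in the technical repeat and -0.96 in the first run. Ppp1r1a went the other way: 1148 and 1071 at CT 12, against 636 and 794 at CT 0 in the brighter set, a log2 difference of 0.64 ± 0.25 (SE; 95% interval 0.09 to 1.19; adjusted p = 0.542). The dimmer set gave 0.61 ± 0.22 (SE; adjusted p = 0.513). In Mapk9 and in both sets of Ppp1cb and of Ppp1r1a the 2 phases did not overlap over the pools. With 2 pools per phase such a gap is easily met. Neither here nor in the comparisons below is its share over all tested probe sets given, so it is a description only. The p38 substrate kinase Mapkapk3 (0.46), a probe set of Mapk14 (0.48) and Mapk4 (0.27) followed on the higher side, and the dimmer set of Ppp2r1a (-0.47), the scaffold subunit of PP2A, and Map2k5 (-0.43) on the lower, all with adjusted limma p-values over 0.5. Other probe sets of these genes did not all share the sign: the other 3 tested Mapk14 sets gave 0.30, 0.10 and -0.47, and the brighter Ppp2r1a set gave 0.06, whereas the other Map2k5 set gave -0.27.

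Over all 67 members, 31 were higher and 36 lower at CT 12, with a median log2 difference of -0.02, against 0.01 over all tested probe sets. Of all 4370 tested probe sets 2231 were higher and 2139 lower. In the Ppp1 family 4 of 15 were higher and 11 lower (median -0.10), in Mapk 6 were higher and 3 lower (median 0.23). Map2k had 5 higher and 3 lower, Map3k 1 and 2, Map4k 2 and 0, Prkc 4 and 2, Camk 3 and 5. Ppp2 had 5 higher and 6 lower, Ppp3 1 and 1, and Dusp 0 and 3. These are counts of probe sets, not genes: 4 of the 9 Mapk sets were of Mapk14. Of the cell type markers, all 6 tested pan-neuronal probe sets had lower values at CT 12 (median -0.41), with intensities, summed over the 14 probe sets of that list, of 7685 and 8599 at CT 12, against 9806 and 11483 at CT 0, while 5 of 11 oligodendrocyte sets had higher and 6 lower values (median -0.17). No marker probe set passed the adjusted threshold. Their part in the values of the members was not tested. The 95% interval lay within ±1 on the log2 scale, a 2-fold difference, for 53 of 67 members (79.1%, against 82.1% of all tested probe sets). Leaving out the 0 h pool gave 1 member at an unadjusted p under 0.05 (1.49%, with 4.30% of all tested probe sets), and leaving out the 18 h or the 24 h pool gave 7 (10.4%, with 10.0% and 9.27% of all). Without the 3 arrays with high controls, where the 12 h pool was filled in from the technical repeat alone, the count was 2 (2.99%, with 6.32% of all).

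**Figure D4:**
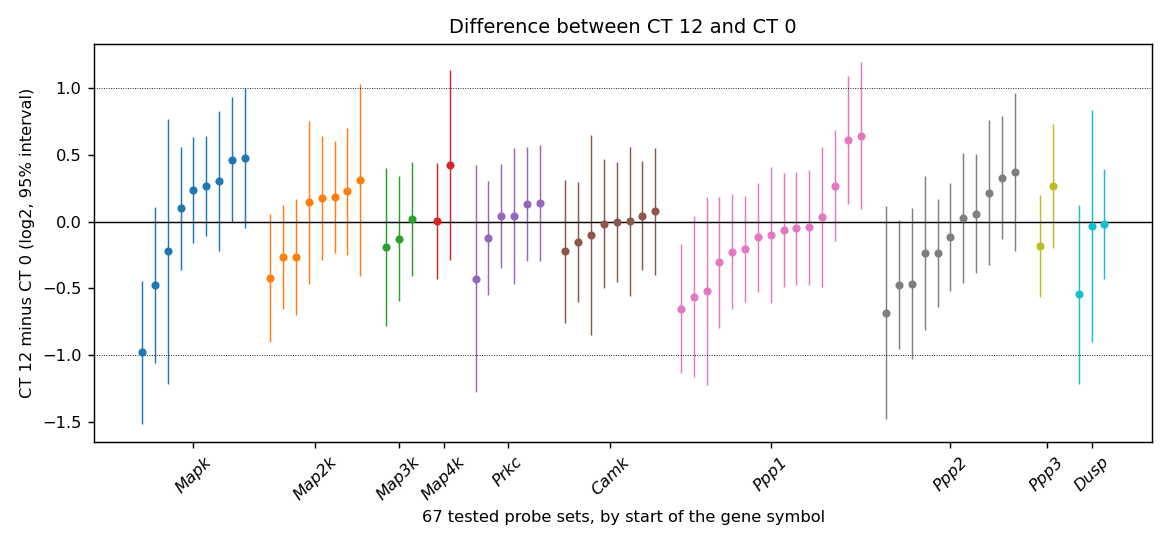
Log2 difference between CT 12 and CT 0 for the 67 tested member probe sets, grouped by the start of the gene symbol and sorted within each group. Points are limma estimates, lines 95% intervals, dotted lines a 2-fold difference; the interval of Mapk9 (-1.51 to -0.44) lies lowest and those of both Ppp1r1a sets lie above 0.

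CT 6, the middle of the subjective day, was set against CT 18, the middle of the subjective night. Again 0 of 67 members passed the adjusted threshold (background 0.0229%). At an unadjusted p under 0.05 there were 3 members (4.48%, background 4.26%), all lower at CT 6 (background of lower ones 2.38%). Map4k1 had 125 and 98.5 at CT 6, against 159 and 186 at CT 18, a log2 difference of -0.63 ± 0.19 (SE; adjusted p = 0.968). It was -0.86 in the technical repeat and -0.41 in the first run. Ppp1r10 had 340 and 294 at CT 6, against 424 and 446 at CT 18, a difference of -0.46 ± 0.18 (SE), with -0.51 in the technical repeat and -0.42 in the first run.

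The third, a probe set of Mapk14, had 181 and 177 at CT 6, against 314 and 228 at CT 18, a log2 difference of -0.58 ± 0.24 (SE), with -0.14 in the technical repeat and -1.03 in the first run. The other 3 tested Mapk14 probe sets gave 0.14, 0.06 and -0.18. On the higher side the smallest p belonged to Dusp5, with 437 and 417 at CT 6, against 314 and 356 at CT 18 (0.35 ± 0.18, SE; adjusted p = 0.968). Ppp2r2b (0.38), Ppp2r2a (0.31), another B subunit of PP2A, Ppp1cc (0.30), the gamma catalytic subunit of protein phosphatase 1, and Map3k1 (0.27) followed, and in each of these 5 sets the 18 h pool was the lowest of the 8. Over all members 34 were higher and 33 lower (median 0.01, against -0.02 over all tested probe sets). For 61 of 67 members (91.0%, against 85.1% of all) the 95% interval excluded a 2-fold difference. Leaving out the 30 h pool gave 5 members under that p (7.46%, with 7.16% of all tested probe sets).

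CT 6 and CT 18 together were set against CT 0 and CT 12 together, here called the 12 h pattern. This is the part of the phase differences that a 24 h curve leaves out. With samples 6 h apart it cannot tell a 12 h period from a 24 h pattern of another shape. No member passed the adjusted threshold (0 of 67, background 0%), and 2 lay under an unadjusted p of 0.05 (2.99%, background 7.3%), 1 higher at CT 6 and 18 (background 3.59%) and 1 lower (background 3.71%). Ppp1r16b, a membrane-bound targeting subunit of protein phosphatase 1, had 1763, 2144, 1845 and 2239 at CT 6 and 18, against 1634, 1490, 1564 and 1491 at CT 0 and 12. The 4 values of each side did not overlap, a description only, since this probe set was named for its small p. Its log2 difference was 0.37 ± 0.12 (SE; adjusted p = 0.632), with 0.31 in the technical repeat and 0.42 in the first run. The dimmer Ppp2r2a set had 605, 486, 464 and 517 at CT 6 and 18, against 688, 538, 754 and 697 at CT 0 and 12, a difference of -0.37 ± 0.15 (SE). The count was 7 (10.4%) without the 6 h pool and 5 (7.46%) without the 12 h or the 42 h pool, with 8.54%, 9.43% and 11.0% of all tested probe sets. It was 1 (1.49%) without the 24 h, 30 h or 36 h pool, with 4.49%, 5.17% and 5.01% of all, and 4 (5.97%) without the 3 arrays with high controls, with 5.88% of all.

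Pools of the second day in constant darkness (24 to 42 h) were compared with those of the first (0 to 18 h) by a day term beside the curve. No member passed the adjusted threshold (0 of 67, background 0%), and 3 lay under an unadjusted p of 0.05 (4.48%, background 3.96%), 2 of them higher on the second day (background 1.9%) and 1 lower (background 2.06%). Map4k4, a kinase upstream of JNK, had 179, 188, 214 and 193 on the second day, against 95.2, 135, 143 and 159 on the first. The days did not overlap, again a description only of a probe set named for its small p. Its log2 difference was 0.57 ± 0.15 (SE; 95% interval 0.23 to 0.90; adjusted p = 0.997), 0.55 in the technical repeat and 0.58 in the first run. A probe set of Mapk14 had 747, 606, 597 and 714 on the second day, against 636, 556, 414 and 432 on the first (0.40 ± 0.15, SE). Prkce, a calcium-independent PKC isoform, had 218, 299, 128 and 247 on the second day, against 330, 295, 310 and 303 on the first (-0.54 ± 0.22, SE), with the 36 h pool far below the rest, whereas its other tested probe set gave -0.05.

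Of the 67 members 42 were higher on the second day and 25 lower, with a median log2 difference of 0.05, against 0.00 over all tested probe sets. The 4 tested Mapk14 sets were all higher on the second day (0.05 to 0.40), and their intervals, apart from that of the set just named, included 0. For 66 of 67 members, all but Prkce, the 95% interval excluded a 2-fold difference between the days (98.5%, against 97.3% of all tested probe sets). Without the 12 h or the 18 h pool 1 member lay at an unadjusted p under 0.05 (1.49%, with 3.91% and 4.26% of all tested probe sets), and without the 30 h pool 7 (10.4%, with 7.71% of all). A test of whether the phase differences changed between the days gave 0 members at an adjusted p of 0.05 (background 0%) and 2 at an unadjusted p under 0.05 in each of the CT 6 and CT 12 differences (2.99%, background 4.92% for CT 6 and 3.09% for CT 12), Mapk6 and Ppp2cb for the first and Map2k1 and Ppp2cb for the second. Mapk6, the atypical kinase ERK3, was read at 1022 and 579 at CT 6, against 356 and 799 at CT 18, the first value of each pair being the first day. Its 18 h pool was read at 152.5 in the first run and at 831.6 in the technical repeat. For Ppp2cb the 12 h pool was read at 68.7 and 446.8 in these runs.

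The spread over the pools differed widely between members. The tested Prkcb probe set had 4267, 4906, 4890, 4679, 4885, 5296, 4530 and 5021 from 0 to 42 h, an SD over the pools of 0.10 on the log2 scale and the smallest of any member. Ppp3ca, with 932 to 1177, and the brighter Camk2d set, with 2405 to 3077, had SDs of 0.11 and 0.12. The largest SD, 0.54, belonged to Mapk6, with 356 at 18 h and 1087 at 0 h. Ppp2cb (175 to 474, SD 0.49), Dusp7 (125 to 315, SD 0.47) and the dimmer Prkce set (128 to 330, SD 0.45) followed. In each of these 3 the lowest value was a CT 12 pool whose partner on the other day lay much higher: 312 for Ppp2cb, 300 for Dusp7, a cytosolic ERK phosphatase, and 310 for Prkce. The runs read some of these lowest pools very differently. In the first run and the technical repeat, Mapk6 was read at 152.5 and 831.6 at 18 h. Ppp2cb was read at 68.7 and 446.8 at 12 h, and Dusp7 at 187.8 and 83.1 at 36 h. For Prkce at 36 h the readings were closer, 110.4 and 148.5. The median SD over the pools was 0.22 in the members and 0.23 in all tested probe sets.

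For 14 genes 2 or more probe sets were tested, which gave 21 pairs. The median correlation of a pair over the 8 pools was 0.41, against 0.28 over the 923 pairs of all tested genes, and 6 of the 21 lay below 0 (28.6%, against 29.4% of all pairs). The 3 sets of Map2k2, which encodes the ERK kinase MEK2, correlated at 0.50 to 0.74 and those of Map2k5 at 0.80, whereas the 2 sets of Camk2d correlated at -0.67, those of Map2k1 at -0.25 and the 6 pairs among the 4 Mapk14 sets between -0.25 and 0.62. Pairs from the same source sequence were Ppp1r1a (0.91), Ppp2r2a (0.76), Ppp1cb (0.68), Ppp2r3a (0.40) and Ppp1r12a (-0.12). All these correlations are descriptions over 8 pools whose arrays the sets share.

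The technical repeat and the first run read the same pools, and the mean of their differences measures an offset between the runs. The technical spread is the scatter of these differences from pool to pool. Its SD had a median of 0.38 on the log2 scale over the members and 0.43 over all tested probe sets. The test below is of the offset. By limma's moderated test against 0, 32 of 67 members differed between the runs at an adjusted p under 0.05 (47.8%, background 48.4%), 14 higher in the technical repeat (background 20.9%) and 18 lower (background 27.5%). At an unadjusted p under 0.05 there were 41 (61.2%, background 55%). The brighter Ppp1cb set had 2714 to 5698 over the pools in the technical repeat, against 727 to 2094 in the first run, a log2 difference of 2.04 ± 0.16 (SE, 8 pools), while the dimmer set from the same source sequence gave 0.46. Camk2b, the beta subunit of CaM kinase II, went the other way, with 770 to 1275 in the technical repeat, against 1886 to 3688 in the first run (-1.39 ± 0.12, SE). In neither probe set did the runs overlap. Mapk6 (1.16), Map2k6 (0.93), Ppp2cb (0.82) and Map2k1 (0.73) were higher in the technical repeat, and Ppp2r2c (-1.09), the brighter Ppp1r1a set (-1.02), Map2k2 (-0.90) and Ppp1ca (-0.78) were lower. The call of Ppp2cb was close to the threshold (limma's test, adjusted p = 0.0468). It was lost without the 0, 6, 12, 18, 24 or 36 h pool, without the arrays b and with no level filter, where the adjusted p was 0.0538 to 0.115. The correlation of the 8 pools between the runs had a median of 0.17 over the members (0.09 over all tested probe sets), and it was below 0 in 22 of 67 (32.8%, against 41.5% of all tested probe sets).

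**Figure D5:**
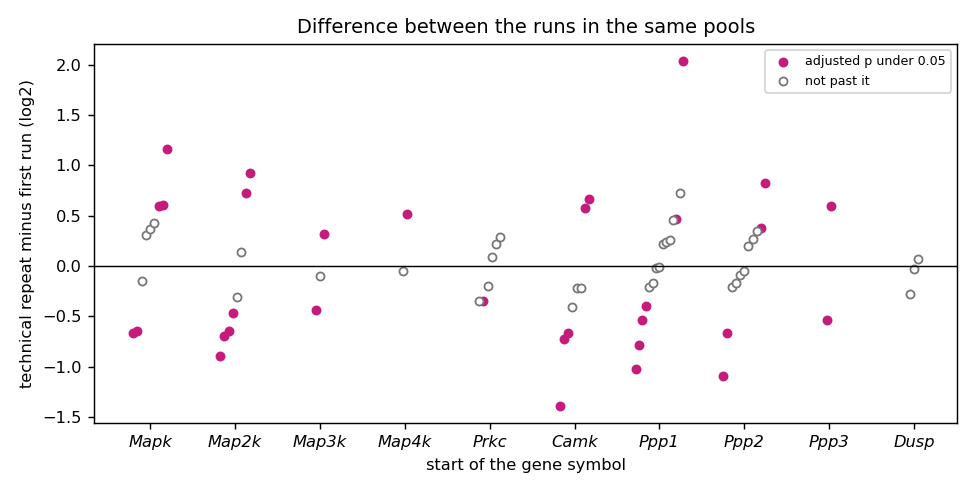
Log2 difference between the technical repeat and the first run for the 67 tested member probe sets, by the start of the gene symbol; filled points have an adjusted p under 0.05. A probe set of Ppp1cb lies highest (2.04) and Camk2b lowest (-1.39), and each family but Map4k, Prkc and Dusp holds filled points on both sides of 0.

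Genes around these enzymes were taken from 6 lists. No probe set of the 14 tested for Ras and Raf, the 9 for transcription factors that the kinases act on, the 12 for PKC activation and substrates, the 7 for calmodulin and calcineurin partners or the 10 for other protein phosphatases passed the adjusted threshold of the rhythm test, and of the kinases downstream of MAP kinases none passed the level filter. At an unadjusted p under 0.05 there were 4 of the 52 tested sets (7.69%, background 6.36%), 1 each of Nf1, a brake on Ras (amplitude 0.35, peak CT 8.04), Egr1, a transcription factor induced by ERK (0.42, CT 8.99), Marcks, a PKC substrate (0.45, CT 8.57), and Ptprr, a tyrosine phosphatase that acts on ERK (0.30, CT 23.3). Marcks had 116, 143, 172, 90.6, 123, 178, 180 and 106 from 0 to 42 h, with both CT 18 pools as the lowest of the 8. Egr1 had 5100, 6261, 8043, 3740, 4261, 4822, 6155 and 3534, highest at 12 h and lowest in the 2 CT 18 pools. Ptprr had 301 and 296 in the CT 12 pools, against 449 and 448 in the CT 0 pools. The adjusted limma p was 0.746 for each of the 4.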

How the data were processed

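Linear intensities of probe sets were used as the authors deposited them, already scaled per array: the mean after trimming 2% at each end was 500.7 to 500.8 on all arrays. How the probes were summarised is not given in the sources used here. No background correction could be varied. Values under the 10th percentile (12.1) were set to that floor and taken to log2, arrays a and b averaged, then the runs. The 59 control probe sets were left out. Of the other 8740, the 4370 above the median were tested. Symbols came from the platform annotation (7006 probe sets with 1 symbol, 308 with several, 1426 with none). A cosine and sine of 24 h were fitted to the 8 pools with limma 3.58.1 in R 4.3.3 (5 residual and 5.13 prior degrees of freedom), with Benjamini-Hochberg adjustment over the 4370 and a limit of 0.05. The CT 6 and CT 12 differences are terms of that fit; the day term, a 4-level phase factor and the run difference were fitted apart. The exact permutation test ran over the 8 pools, on the size of the curve and so without a direction. The number of arrays limits the precision. The fits were tested on simulated data.

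The members, lists and tests were chosen with earlier results of these data known. Genes named are those nearest to a threshold (12 by the rhythm test, 5 in each direction of every other comparison), the brightest probe set and that with the smallest rhythm p in each family, genes with several tested probe sets, and list genes at an unadjusted rhythm p under 0.05. The probe sets with the smallest and largest SD over the pools were named after their values were seen. Alternatives were other scaling, filters, floors, variance models, single runs, arrays or pools left out, and a fit to both runs with the pool as a block.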

Additional observations from a re-analysis of the deposited data

How the results depend on the processing

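The count of members past an adjusted p of 0.05 was 0 for the 24 h rhythm, both phase differences, the 12 h pattern and the day comparison under each alternative run, the added one without the 3 arrays with high controls (chosen after seeing the data) included. Counts at an unadjusted p under 0.05 moved, and the cause was not tested. In brackets is the share of all probe sets tested under the same alternative. With no level filter (127 members) they were 7 for the rhythm (6.51%), 10 for CT 12 (8.33%), 5 for CT 6 (5.42%), 17 for the 12 h pattern (6.60%) and 5 in the exact test (5.59%). With the filter at the 75th percentile (35 members, fewer tested) they were 1 for CT 6 (4.53%), 1 for the day (4.12%), 0 in the exact test (5.77%), and 20 adjusted (55.4%) and 23 unadjusted (60.4%) for the runs. The technical repeat alone gave 6 for the rhythm (6.48%), 5 for CT 6 (5.51%) and 10 for the 12 h pattern (7.05%), and the first run alone 1 for the 12 h pattern (7.16%) and 1 for the day (4.30%). Scaling to the median gave 7 for CT 12 (9.93%) and 6 in the exact test (6.34%), quantile normalization 5 in the exact test (5.70%), and leaving out arrays a gave 7 for CT 12 (7.00%) and 1 for the day (3.00%). Without the 3 arrays with high controls there were 2 for CT 12 (6.32%) and 4 for the 12 h pattern (5.88%). With each pool left out in turn the counts ran from 2 to 5 for the rhythm (3.68% to 8.49%) and for CT 6 (3.68% to 7.16%), from 1 to 7 for CT 12 (4.30% to 10.0%), the 12 h pattern (4.49% to 11.0%) and the day (3.00% to 7.71%), and from 25 to 34 adjusted (42.4% to 46.1%) and 34 to 42 unadjusted (50.7% to 54.0%) for the runs. Another fit kept both runs apart, with the run as a fixed term and the pool as a random block. It gave 7 for the rhythm (7.64%), 8 for CT 12 (9.34%), 5 for CT 6 (4.74%) and 4 for the 12 h pattern (7.73%), and changed no adjusted call. Its residual degrees of freedom count 16 values from 8 pools, so its p-values may be too small. Of 1278 values for the 62 named results, 1268 kept direction and side of the threshold. Apart from the run differences, the adjusted limma p of the named results was 0.456 or more in the main fit. Keeping their side of 0.05 was thus nearly fixed in advance and says little. For the rhythm, a peak that moved by up to 6 h counted as the same direction. In the technical repeat alone the 12 h value of the dimmer Camk2d set was 0.0024 and the day value of Camk2b was 0.018, both against the sign of all arrays. The run difference of Ppp2cb (adjusted p = 0.0468) lost its call in 8 alternatives. Dim probe sets near the floor limit what can be seen of Dusp1, Camk4 and the other genes read only there.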

Other observations

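Among the 60 member probe sets below the level filter, 15 lay at an unadjusted p under 0.05 in the 12 h pattern when no filter was used, 5 higher and 10 lower at CT 6 and 18 than at CT 0 and 12, against 7.60% of all probe sets below the filter. None of them passed the adjusted threshold of limma's test. They include sets of Mapk14, Map3k1, Map3k8, Prkcd, Prkce, Camk2b, Camk2d, Dusp6 and Ppp1r12a. Some of these values rest on readings near the floor of 12.1 in a single run. The Camk2b set was at the floor at 6, 18, 30 and 42 h in the technical repeat, but at 83 to 130 in the first run. The Ppp1r12a set left the floor only at 12 h in the first run (14.7) and at 18 h and 42 h in the technical repeat (28.5 and 25). In the main comparison 2 of the 67 brighter members lay under that p.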
